A study of Mus musculus with 10 samples.

Results

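The genes described here are the neighbours of Tcf7l2 on mouse chromosome 19. They were chosen by position, as protein-coding genes whose start in GENCODE release M21 (genome build GRCm38) lies between 45741820 and 65933654, that is, up to 10 Mb on either side of Tcf7l2, and selected on their counts, as genes with at least 10 counts in at least 5 libraries of any genotype. Tcf7l2 itself, Gpam, Adrb1, Adra2a, Elovl3 and any Cyp, Col or Atp5 gene were left out by name. Of 52636 gene identifiers in the table, 114 were protein-coding genes of this window, 84 passed the count filter, and 5 of those were left out by name, which leaves 79 members. The filter reads counts without regard to genotype, and 73 members passed it in all 10 libraries and 6 in 5 to 9 of them. No member reached 10 counts in libraries of a single genotype only. Just inside the filter stood Sorcs1, with 5 libraries at 10 or more counts, and just outside it Eno4, with 3.

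Total RNA of the inguinal fat pad, a white depot under the skin, was sequenced from C57BL/6 mice aged 6 months. The 5 controls are given as TCF7L2F/F in the growth protocol and as wild type in the genotype label, and the 5 knockouts as TCF7L2F/F; Adp-Cre and as an adipose Tcf7l2 knockout. Both groups thus carry the floxed alleles, differ by the Cre, which is directed to fat, and ate a 65% high-fat diet for 16 weeks per the diet label, 12 weeks per the descriptions and 4 months per the treatment protocol. No group carries the Cre without floxed alleles. The comparison of these neighbours asks whether expression around the deleted gene differs between the genotypes. In the text, a library is named by its group and a number from 1 to 5, and the numbers pair nothing. Whether each library is a mouse of its own is not stated, so the p-values measure the spread between these libraries.

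As background, a gene targeted in embryonic stem cells stays linked to the chromosome around it, so alleles of nearby genes can travel with it as passengers when the line is bred. A deletion can also act on its neighbours in cis, through regulatory elements inside the removed or altered sequence that serve other genes. Tcf7l2 is a transcription factor of the TCF/LEF family that binds DNA with beta-catenin in Wnt signalling, so it can also act on distant genes in trans. Per the growth protocol, both groups here carry the floxed alleles, so alleles linked to them may be present in both. The counts carry no allele information, variants were not analysed here, and the part of such alleles was not tested.

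The promoter sequences of the members with the largest called differences are shown because start-site sequence is what a DNA-binding factor such as Tcf7l2 could read there. Each run holds 250 bases before and 50 bases after a start site, 5′ to 3′ on the gene's own strand, from RefSeq on GRCm38.p6. Npm3 and Nfkb2 had the largest rises that passed the test in the knockout, and Zfp950 and Ablim1 the falls. Cuedc2, which did not pass, is shown because it alone among 72 members with a RefSeq promoter held the letters CTTTGAT, a TCF/LEF-type motif searched on both strands, and the capitals mark that match. Genes with several RefSeq starts are shown at the start nearest to their GENCODE 5′ end.
Npm3 (chr19:45749516-45749815, minus strand): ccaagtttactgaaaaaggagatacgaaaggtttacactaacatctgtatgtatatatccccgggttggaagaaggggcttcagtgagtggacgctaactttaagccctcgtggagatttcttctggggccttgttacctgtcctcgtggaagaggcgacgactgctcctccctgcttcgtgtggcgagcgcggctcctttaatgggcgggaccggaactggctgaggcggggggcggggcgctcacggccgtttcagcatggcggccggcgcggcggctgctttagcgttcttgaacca
Nfkb2 (chr19:46304487-46304786, plus strand): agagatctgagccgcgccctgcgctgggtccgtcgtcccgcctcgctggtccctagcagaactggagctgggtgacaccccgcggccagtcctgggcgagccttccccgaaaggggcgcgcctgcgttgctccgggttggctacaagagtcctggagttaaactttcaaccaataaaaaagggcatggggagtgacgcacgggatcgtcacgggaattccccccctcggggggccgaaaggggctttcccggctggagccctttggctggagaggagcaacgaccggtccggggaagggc
Cuedc2 (chr19:46338611-46338910, minus strand): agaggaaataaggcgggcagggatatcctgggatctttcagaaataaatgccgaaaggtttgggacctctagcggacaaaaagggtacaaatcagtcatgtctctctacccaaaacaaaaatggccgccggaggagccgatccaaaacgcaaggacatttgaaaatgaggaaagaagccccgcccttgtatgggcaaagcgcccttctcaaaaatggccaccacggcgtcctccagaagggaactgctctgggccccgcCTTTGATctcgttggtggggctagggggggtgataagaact
Ablim1 (chr19:57314870-57315169, minus strand): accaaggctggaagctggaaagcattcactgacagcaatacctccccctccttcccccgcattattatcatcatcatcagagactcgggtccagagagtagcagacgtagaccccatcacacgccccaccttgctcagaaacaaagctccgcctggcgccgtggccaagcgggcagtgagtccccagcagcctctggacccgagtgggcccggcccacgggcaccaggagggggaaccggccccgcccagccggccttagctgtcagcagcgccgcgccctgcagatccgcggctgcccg
Zfp950 (chr19:61140791-61141090, minus strand): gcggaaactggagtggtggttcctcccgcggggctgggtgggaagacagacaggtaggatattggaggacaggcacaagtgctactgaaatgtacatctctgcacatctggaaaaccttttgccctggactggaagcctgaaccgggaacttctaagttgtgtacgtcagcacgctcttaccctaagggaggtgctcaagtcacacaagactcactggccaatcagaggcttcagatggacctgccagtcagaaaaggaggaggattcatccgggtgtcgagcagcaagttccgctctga
The match in the Cuedc2 promoter starts at base 260 of its 300 bases, after the start site. Of 32851 RefSeq promoter windows of the same length, 3.73% held CTTTGAT, against 1.39% of the member promoters and 0 of 7 promoters of called members. The related letters CTTTGAA were found in 5.14% of all windows and in 1.39% of the member promoters, there in Dclre1a. Member promoters had a median GC content of 61.8%, against 52.7% for all windows.

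The libraries held 14032866 to 17782073 counts each, and 15927 genes were tested. Values per library are CPM, counts brought to a common library size with TMM factors, and a gene is called at an adjusted p below 0.05 by edgeR's quasi-likelihood test over all tested genes. Tcf7l2 had 11.1, 10.5, 9.16, 11.4 and 11.1 CPM in controls 1 to 5 and 5.57, 6.14, 6.20, 5.58 and 5.68 CPM in knockouts 1 to 5. Every library thus followed its label (log2 fold change -0.87, SE 0.096, adjusted p = 6.1e-04, and exact permutation p = 0.0079, the smallest that 5 libraries against 5 can give). The 7 adipocyte markers summed to between 22455 and 28515 CPM over the controls and between 24464 and 33145 CPM over the knockouts, so the labelled tissue carried its defining markers. Fabp4 made up the largest share of that sum, while Lep was called higher and Cfd lower, at 529 to 795 CPM over the controls and 173 to 271 CPM over the knockouts. In bulk tissue, fewer cells of a type and less RNA per cell cannot be told apart. Markers of mammary and skin epithelium summed to at most 1.13 CPM in any library. Transcripts of intronic or unknown type, summarised as the mean log2 CPM of 786 loci and called the intronic-type score here, differed between the groups. That score ran from 0.727 to 1.27 in controls 1 to 4 and from 0.0562 to 0.464 in the knockouts, with control 5 at 0.382 inside the knockout range. Library numbers ran from 1 to 5 in the controls and from 6 to 10 in the knockouts, so genotype and any handling that followed this order cannot be told apart.

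Most neighbours of Tcf7l2 did not pass the test. Of the 79 members, all of which were tested, 7 changed (8.86%), against a background of 12.9% of all tested genes. The 5 that rose (6.33%, background 5.84%) were Npm3, Nfkb2, Wbp1l, Bbip1 and Prdx3, and the 2 that fell (2.53%, background 7.05%) were Ablim1 and Zfp950. Among protein-coding genes under the same count filter, 11.7% of 401 genes on the rest of chromosome 19 and 12.4% of 13054 on other chromosomes changed. The share of members that changed lay below each of these shares, and that difference was not tested. These shares are not fully alike, since genes were left out by name from the members alone. Besides Tcf7l2, the called genes Gpam and Elovl3 were left out in that way. An unadjusted p below 0.05 was found for 24 members (30.4%, background 31.0%). Knockout and control ranges did not overlap for 4 members, Nfkb2, Wbp1l, Ablim1 and Zfp950 (5.06%, background 8.99%).

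**Figure D1:**
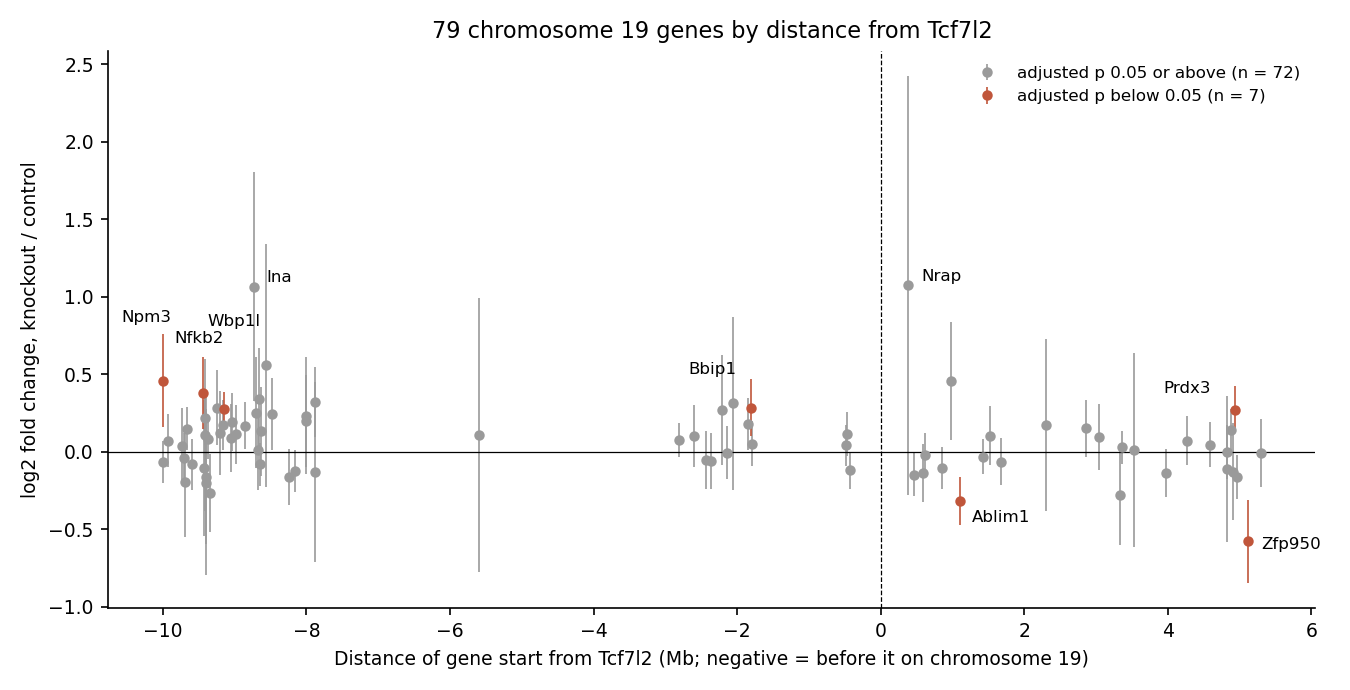
Log2 fold change (knockout over control) of each of the 79 members against its distance from Tcf7l2 in Mb, with the 95% interval as a bar. Distance is taken from the lower coordinate of the gene, whatever its strand. The 7 members in red had an adjusted p below 0.05, and none of them lies within 1 Mb of the dashed line that marks Tcf7l2. Gpam, which was called and lies 0.67 Mb before Tcf7l2, was left out by name and is not shown.

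The differences were small in size. The median log2 fold change of the members was 0.07, against 0.00018 for all tested genes, 0.05 for the rest of chromosome 19 and 0.02 for other chromosomes. Positive values were found for 48 members (60.8%, background 50.0%), against 61.8% on the rest of the chromosome and 54.1% on others. The median size, without regard to sign, was 0.13 for members and 0.15 for other chromosomes. For 59 members, the 95% interval of the fold change lay within 1.5-fold in either direction, and for 76 within 2-fold. An estimate of 1.5-fold or more was reached by 2 members, Ina and Nrap, and neither passed the test (2.53% of members, background 10.4%). By library, the median member stood between -0.03 and 0.05 from the control mean in the controls and between 0.03 and 0.11 in the knockouts, on the log2(CPM + 0.5) scale. Control 5, at 0.05, lay inside the range of the knockouts.

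By distance from Tcf7l2, the counts of called members were small and are read beside the background of 12.9%. Distances run from the lower coordinate of each gene, whatever its strand, to the body of Tcf7l2. Genes left out by name are not counted, among them Gpam, which was called and lies 0.67 Mb before Tcf7l2. Within 0.5 Mb, 0 of 5 members passed by edgeR, and within 2 Mb 2 of 16 did (12.5%), a share near that background. Between 0.5 and 2 Mb, 2 of 11 passed, Bbip1 before and Ablim1 after the gene. The interval from 2 to 5 Mb held 22 members and a single call, Prdx3. From 5 to 10 Mb, 4 of 41 passed, of which Npm3, Nfkb2 and Wbp1l lie before and Zfp950 after Tcf7l2. The median log2 fold change in these 4 intervals was 0.04, -0.02, 0.04 and 0.11. Further along the same chromosome, the share of genes that changed was 8.79% between 10 and 20 Mb before Tcf7l2, 18.8% between 20 and 30 Mb, 5.0% between 30 and 40 Mb and 12.6% beyond 40 Mb. The members are unevenly spread, and 39 of the 79 lie more than 5 Mb before Tcf7l2. Only 2 lie more than 5 Mb after it, the last being Csf2ra at 5.29 Mb, near the end of the chromosome.

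The 4 members nearest to Tcf7l2 on each side, 7 of which are described, were inspected first, since effects in cis would be sought there. Vti1a, a SNARE protein of vesicle fusion whose gene directly precedes Tcf7l2 (chromosome 19, 55316295 to 55627309, plus strand), had 38.7, 40.7, 36.5, 39.7 and 36.9 CPM in controls 1 to 5. Its knockout values were 33.6, 36.0, 35.9, 36.8 and 34.8 CPM. Knockout 4 lay just above control 3 and the other knockouts lay below all controls, and the log2 fold change of -0.12 (95% interval -0.24 to -0.0022, unadjusted p = 0.047) had an adjusted p of 0.15 by edgeR.

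Acsl5, which activates long-chain fatty acids for lipid metabolism, had 85.4, 84.5, 85.8, 88.8 and 101 CPM in controls and 95.4, 92.2, 93.9, 89.9 and 86.2 CPM in knockouts. Its highest value belonged to control 5, and its log2 fold change was 0.04 (interval -0.09 to 0.17, adjusted p = 0.69). Zdhhc6, a palmitoyltransferase of the endoplasmic reticulum whose 3′ end overlaps that of Acsl5, stood at 49.6 ± 2.49 CPM in controls and 53.7 ± 4.44 CPM in knockouts (mean ± SD, n = 5 each; interval -0.03 to 0.26, adjusted p = 0.26). Acsl5 shares 8.31% of its exonic bases with Zdhhc6, and reads there could have been counted together. Shoc2, a scaffold of RAS signalling, had 77.9 ± 6.81 and 80.7 ± 3.87 CPM (interval -0.09 to 0.19, adjusted p = 0.65). Dclre1a, a nuclease of DNA crosslink repair, had 17.6 ± 1.15 and 16.0 ± 1.60 CPM (interval -0.33 to 0.05, adjusted p = 0.30), and its back-to-back neighbour Nhlrc2 29.8 ± 0.803 and 29.3 ± 2.56 CPM (interval -0.17 to 0.12, adjusted p = 0.83). For these 6 genes, every interval lay between -0.33 and 0.26 on the log2 scale. By DESeq2 and by limma-voom with quality weights, none of the 7 close members passed either, and none did in any fit without a single library. Of the 7, Shoc2 lies furthest from Tcf7l2. The called member Ablim1 and the called gene Gpam, which was left out by name, both lie nearer than Shoc2. The called member Bbip1 overlaps Shoc2 at its 5′ end. The 7 therefore do not stand for all genes at such distances. Afap1l2, a further member 0.98 Mb after Tcf7l2, had a log2 fold change of 0.46 (interval 0.08 to 0.84, adjusted p = 0.098 by edgeR). It passed by limma-voom, without a filter on low counts and without control 5.

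The remaining near neighbour, Nrap, encodes an actin-anchoring protein of striated muscle and is the first protein-coding member after Tcf7l2. It had 0.179, 0.764, 0.738, 1.55 and 3.40 CPM in controls 1 to 5 and 5.80, 1.76, 4.16, 0.863 and 1.37 CPM in knockouts 1 to 5. Knockouts 1 and 3 and control 5 were high, the groups overlapped, and the log2 fold change of 1.07 had an interval from -0.28 to 2.42 (adjusted p = 0.26). The same 3 libraries held the highest sums of 6 skeletal muscle markers (Acta1, Myh4, Ckm, Tnnt3, Mylpf and Ttn), at 699 CPM in knockout 1, 586 CPM in knockout 3 and 541 CPM in control 5. In the other libraries that sum ran from 23.9 to 121 CPM, and Ckm and Myh4 each had no count in 2 libraries. Of these markers, 0 of 6 passed the test, and their part in the Nrap values was not tested.

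**Figure D2:**
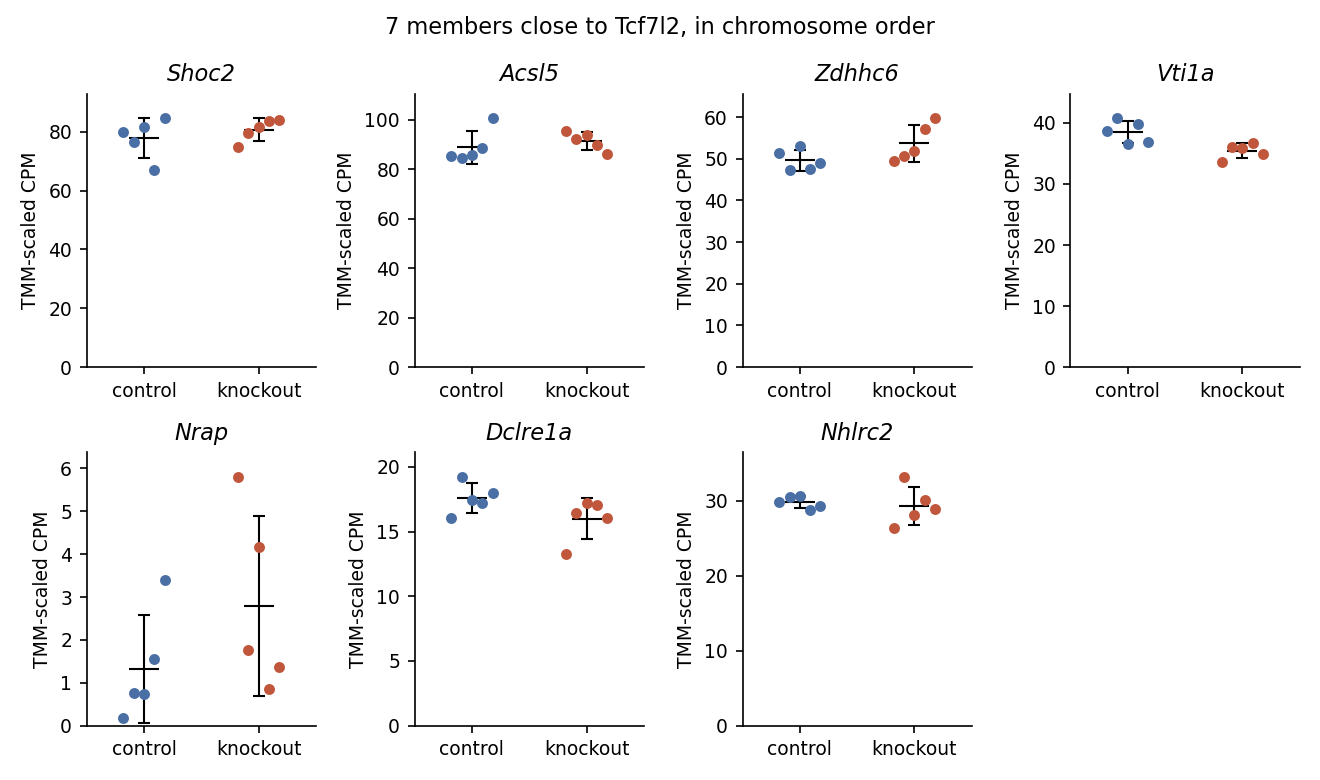
TMM-scaled CPM of 7 members close to Tcf7l2 in each of the 5 control (blue) and 5 knockout (red) libraries, with the mean as a horizontal mark and the SD as a bar. The groups overlap in every panel, and Nrap shows its highest values in knockouts 1 and 3 and control 5.

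Of the members that rose, Wbp1l had the smallest adjusted p. This gene for a WW domain binding protein (ENSMUSG00000047731, 46599084 to 46657389, plus strand) had 93.3, 89.5, 100.3, 97.7 and 101.0 CPM in controls 1 to 5 and 116, 114, 120.4, 111 and 120.5 CPM in knockouts 1 to 5. Every knockout lay above every control, and the log2 fold change was 0.27 (SE 0.053, adjusted p = 0.011). Prdx3 encodes a peroxiredoxin that removes hydrogen peroxide in mitochondria (ENSMUSG00000024997, 60864051 to 60874556, minus strand) and had 108, 108, 122, 112 and 106 CPM in controls. In the knockouts it had 131, 145, 126, 119 and 148 CPM, so knockout 4 lay below control 3, and the log2 fold change was 0.27 (SE 0.070, adjusted p = 0.029). Per kilobase of exon, Prdx3 was the most abundant member, at a mean of 82.7 CPM per kilobase.

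Nfkb2 encodes the p100 precursor of an NF-kappa-B subunit in the alternative pathway of that family (ENSMUSG00000025225, 46304320 to 46312385, plus strand). It had 28.7, 26.1, 21.7, 30.6 and 30.5 CPM in controls and 43.9, 34.5, 31.5, 33.5 and 35.4 CPM in knockouts. The lowest knockout lay just above the highest control, knockout 1 was the highest, and the log2 fold change was 0.38 (SE 0.11, adjusted p = 0.040). Other genes cover 18.1% of its exonic bases, the neighbour Psd among them. Npm3, a histone chaperone of the nucleoplasmin family (ENSMUSG00000056209, 45747734 to 45749591, minus strand), had 9.64, 7.83, 8.85, 9.40 and 11.1 CPM in controls and 17.1, 10.9, 11.1, 11.4 and 13.96 CPM in knockouts. Knockouts 2 and 3 lay just below control 5, knockout 1 was again the highest, and the log2 fold change was 0.46 (SE 0.14, adjusted p = 0.048).

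Knockout 1 also had the highest sum of lymphocyte markers. The 6 T cell markers summed to 75.5 CPM there, against 16.0 to 26.0 CPM in the other knockouts and 12.5 to 23.3 CPM in controls, with 2 of 6 higher by the test. The 5 B cell markers, with 3 higher by the test, summed to 1521 CPM in knockout 1, against 837 to 1071 CPM in the other knockouts and 676 to 986 CPM over the controls, and none of these T or B cell markers was at 0 in any library. Without knockout 1, the log2 fold change was 0.30 for Nfkb2 (adjusted p = 0.053) and 0.34 for Npm3 (adjusted p = 0.069). Both calls were also lost without other libraries, with adjusted p values of 0.095 and 0.119 without control 2. The part of lymphocytes in either result was not tested.

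Bbip1, a small subunit of the BBSome that carries cargo to cilia (ENSMUSG00000084957, 53929861 to 53944627, minus strand), had 20.1, 20.6, 24.2, 22.2 and 20.5 CPM in controls and 24.9, 28.2, 23.1, 24.6 and 30.3 CPM in knockouts. Knockout 3 lay below control 3, and the log2 fold change was 0.28 (SE 0.086, adjusted p = 0.048).

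Both genes that fell lie after Tcf7l2. Ablim1, which links LIM domains to actin filaments (ENSMUSG00000025085, 57032733 to 57314919, minus strand), had 276, 285, 262, 243 and 232 CPM in controls and 225, 206, 217, 200.4 and 192 CPM in knockouts. Every knockout lay below every control (log2 fold change -0.32, SE 0.071, adjusted p = 0.018). Endothelial markers were also lower, with 4 of 5 called. Their sums were 756 to 985 CPM over the controls and 624 to 738 CPM over the knockouts, none of the 5 was at 0 in any library, and their part in the Ablim1 result was not tested. Zfp950, a zinc finger gene near the end of the chromosome (ENSMUSG00000074733, 61053840 to 61140840, minus strand), had 45.9, 45.7, 30.7, 42.7 and 30.5 CPM in controls and 29.2, 24.3, 26.9, 26.5 and 24.03 CPM in knockouts. Controls 1, 2 and 4 were high and controls 3 and 5 lay just above knockout 1, with no overlap (log2 fold change -0.58, SE 0.12, adjusted p = 0.016). Zinc finger genes of this kind have similar copies, so its count is uncertain where reads match several of them.

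**Figure D3:**
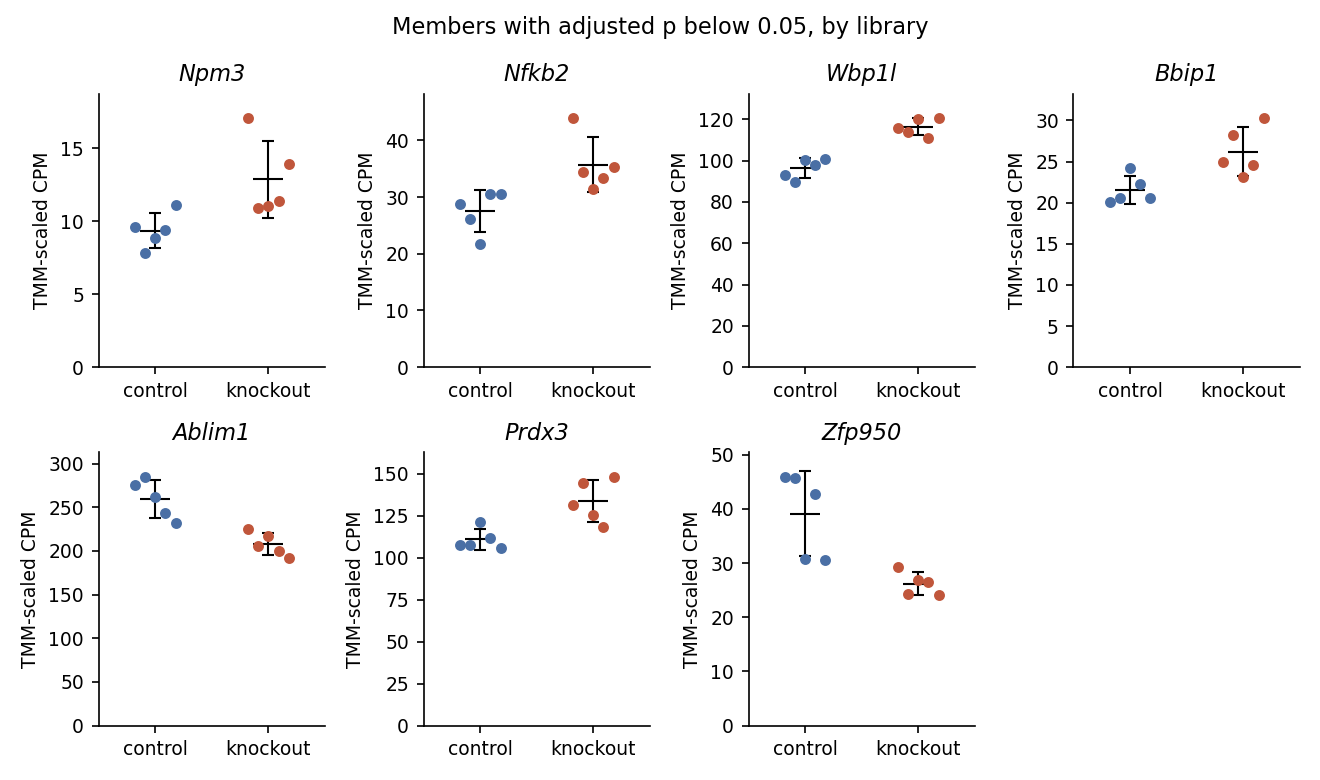
TMM-scaled CPM of the 7 members with an adjusted p below 0.05 in the 5 control (blue) and 5 knockout (red) libraries, each axis starting at 0, with the mean as a horizontal mark and the SD as a bar. Wbp1l, Nfkb2, Ablim1 and Zfp950 do not overlap between the groups, and 2 of the 5 Zfp950 controls lie close to the knockouts.

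By role, each list held few called members, and their counts are read beside the 12.9% of all tested genes that were called (5.84% higher, 7.05% lower). Of 18 members in signalling and transcription, 1 was higher (Nfkb2), 0 were lower and 17 did not pass by edgeR. Their median log2 fold change was 0.08. The medians of the lists are read beside 0.07 for all members and 0.02 for protein-coding genes of other chromosomes. For all tested genes, which also hold loci that are not protein-coding, the median was 0.00018. In this group, Trim8, a ubiquitin ligase, stood at 22.7 ± 3.46 and 27.6 ± 3.70 CPM (adjusted p = 0.11). The Hedgehog pathway repressor Sufu stood at 21.1 ± 1.55 and 17.5 ± 3.28 CPM (adjusted p = 0.14). Ldb1, a cofactor that bridges LIM-domain and other DNA-binding proteins, stood at 58.6 ± 3.99 and 56.9 ± 5.86 CPM (adjusted p = 0.74), and Grk5, a kinase of G protein-coupled receptors, at 43.3 ± 3.26 and 38.7 ± 1.98 CPM (adjusted p = 0.11).

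Among 12 members in mitochondria, redox and metabolism, 1 was higher (Prdx3), 0 were lower and 11 did not pass, with a median of 0.10. Gsto1, an omega-class glutathione transferase, had 78.2, 87.5, 103, 76.9 and 95.1 CPM in controls and 93.1, 111, 118, 98.0 and 131 CPM in knockouts. Controls 3 and 5 overlapped the knockouts, and the log2 fold change of 0.32 (interval 0.10 to 0.54) had an adjusted p of 0.058. Its adjacent paralog Gsto2 was near the limit of detection, with 8 to 24 counts per library and an interval from -0.71 to 0.45. The mitochondrial carriers Sfxn2 and Sfxn4 stood at 18.7 ± 0.810 and 21.04 ± 1.86 CPM (adjusted p = 0.14) and at 6.35 ± 1.18 and 5.80 ± 0.608 CPM (adjusted p = 0.57). Usmg5, in none of the lists, is the symbol in this annotation for a small subunit of ATP synthase and stood at 107 ± 20.9 and 136 ± 32.1 CPM (adjusted p = 0.15).

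Of 14 members in RNA, ribosome, DNA repair and chromosome structure, 1 was higher (Npm3), 0 were lower and 13 did not pass, with a median of 0.05. Eif3a, a core subunit of a translation initiation factor, stood at 302 ± 22.3 and 302 ± 30.9 CPM (interval -0.18 to 0.17), and the cohesin subunit Smc3 at 87.9 ± 8.63 and 87.6 ± 8.05 CPM (interval -0.18 to 0.17). Pdcd4, an inhibitor of translation, stood at 65.6 ± 6.10 and 74.4 ± 6.39 CPM (adjusted p = 0.13). The 23 members in membrane traffic and cytoskeleton had 2 higher (Bbip1 and Wbp1l, which was listed there as a membrane protein), 1 lower (Ablim1) and 20 not passing, with a median of 0.09. Actr1a, a subunit of dynactin, stood at 171 ± 9.09 and 180 ± 9.40 CPM (interval -0.05 to 0.21). The 12 members in none of these lists had 0 higher and 1 lower, Zfp950.

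Ina, which encodes a neuronal intermediate filament, had the largest estimate before Tcf7l2. It had 5 to 17 counts per control and 13 to 26 per knockout library, and reached 10 in 2 controls and all 5 knockouts. Its CPM were 0.417, 0.573, 0.799, 0.338 and 0.996 in controls and 0.747, 0.912, 1.52, 1.73 and 1.78 in knockouts. Knockouts 1 and 2 overlapped the controls, and the log2 fold change of 1.07 (interval 0.33 to 1.80) had an adjusted p of 0.057. Ina shares 14.1% of its exonic bases with Nt5c2, which had a mean of 47.3 CPM in controls and 53.2 CPM in knockouts. Reads in the shared bases could have been counted together. Ina was chosen for mention after its values were seen.

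Some members start close to each other on opposite strands. Start sites lay within 1000 bases of each other in 7 such pairs, and 1 of these 14 genes was called, beside a background of 12.9%. Not all pairs lie back to back. The 5′ ends overlap for Ldb1 with Pprc1, Nt5c2 with Ina and Bbip1 with Shoc2, which share 177, 456 and 97 exonic bases. Reads there could have been counted together. The log2 fold changes had the same sign in 5 pairs and opposite signs in 2. Bbip1, which rose by 0.28, starts 321 bases from Shoc2, which stood at 0.05 (adjusted p = 0.65). Nt5c2, a cytosolic nucleotidase at 0.17 (adjusted p = 0.12), starts 455 bases from Ina. Dclre1a and Nhlrc2, whose start sites are 39 bases apart, stood at -0.14 and -0.02. The pairs of opposite sign were Usmg5 (0.34) with Pdcd11 (-0.08), 121 bases apart, and Zdhhc6 (0.11) with Vti1a (-0.12), 263 bases apart. Whether the members of a pair differ from each other was not tested.

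Levels varied widely between members and little between libraries. Mean expression per kilobase of exon ran from 0.0676 CPM for Sorcs1 to 82.7 CPM for Prdx3, with a median of 5.64. After Prdx3, the most abundant per kilobase were Sfr1 at 60.6, Gsto1 at 49.0, Usmg5 at 44.2 and Actr1a at 40.7 CPM. The coefficient of variation over the 5 controls had a median of 9.30% and ran from 2.04% for Ccdc186 to 94.8% for Nrap. Over the 5 knockouts it had a median of 10.3% and ran from 2.76% for Fam160b1 to 75.4% for Nrap.

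The number of called members moved with single libraries and with the model, and so did the background. It was 2 without control 1 (background 3.49%), 2 without control 2 (3.33%), 6 without control 3 (10.6%), 3 without control 4 (5.61%) and 12 without control 5 (19.1%). It was 9 without knockout 1 (background 14.1%), 3 without knockout 2 (6.17%), 7 without knockout 3 (9.13%), 5 without knockout 4 (10.3%) and 3 without knockout 5 (5.45%). Wbp1l and Zfp950 passed whichever library was dropped, Ablim1 in 8 of these 10 fits, Prdx3 in 5, Bbip1 and Nfkb2 in 3 and Npm3 in 2. Ablim1 missed the threshold without control 1 (adjusted p = 0.055) and without control 2 (0.053). All 7 passed with RLE size factors (background 12.8%), DESeq2 (14.8%), no filter on low counts (5.82%), the members' count filter for all genes (12.9%) and limma-voom (22.6%). Once the intronic-type score entered the edgeR fit as a covariate, 0 members had an adjusted p below 0.05 and 2 an unadjusted one, while the background fell to 0.308% of all tested genes. Among the controls, only control 5 had a score inside the knockout range, so genotype and score could not be well told apart there. Tcf7l2 still passed in that fit, at -0.83 (adjusted p = 0.034), and the fit was added after the data were seen.

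**Figure D4:**
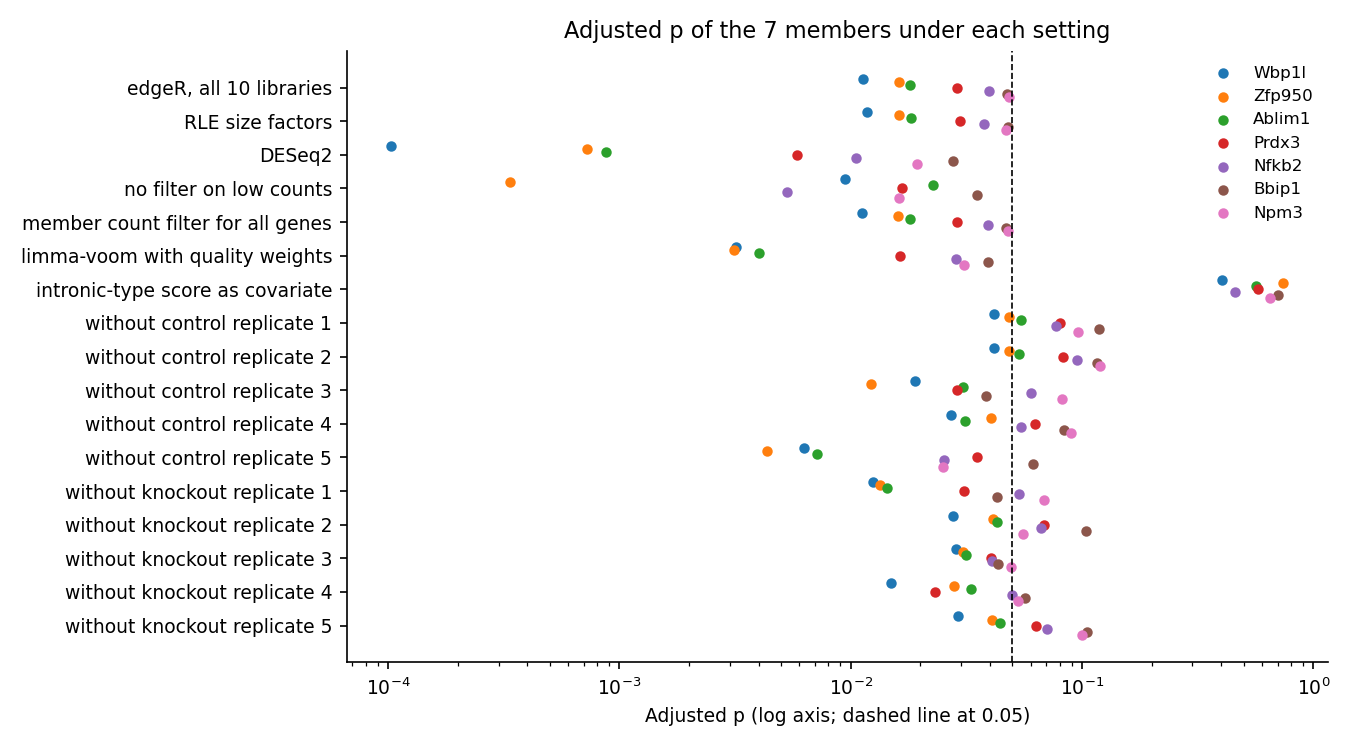
Adjusted p (log axis) of the 7 called members under each setting, 1 row per setting, with a dashed line at 0.05. In the covariate fit, all 7 lie above 0.4, while Wbp1l and Zfp950 lie below 0.05 in every other row.

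The Zfp950 values are set beside that score here. Controls 1, 2 and 4, with 42.7 to 45.9 CPM of Zfp950, had scores of 1.08, 1.27 and 1.20. Controls 3 and 5, with 30.7 and 30.5 CPM, had scores of 0.727 and 0.382, and the 5 knockouts, with 24.03 to 29.2 CPM, had scores of 0.0562 to 0.464. In the covariate fit, its log2 fold change was -0.11 (SE 0.10, adjusted p = 0.74), against -0.58 without. The change of Nfkb2 was 0.40 in that fit (SE 0.17, adjusted p = 0.46), against 0.38, and that of Wbp1l was 0.19 (SE 0.071, adjusted p = 0.40), against 0.27.

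**Figure D5:**
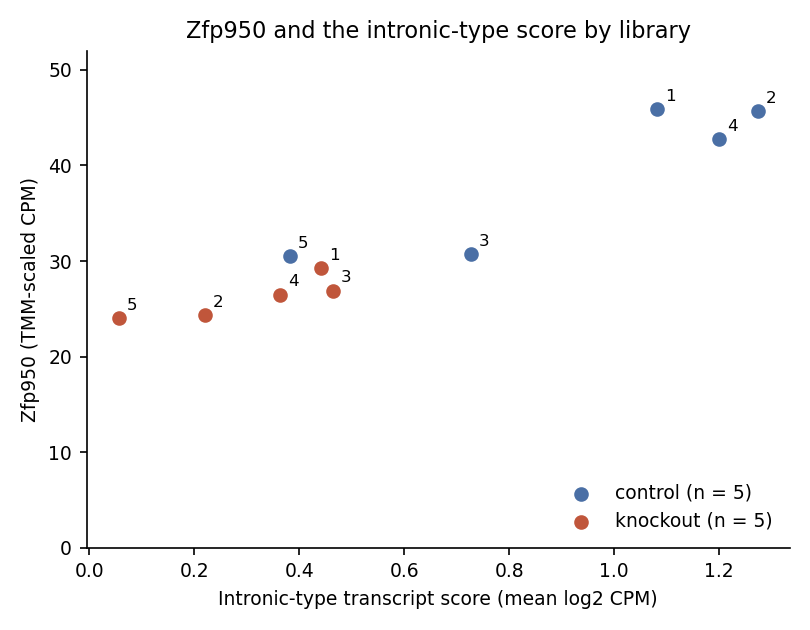
Zfp950 (TMM-scaled CPM) against the intronic-type score (mean log2 CPM of 786 loci) in each library, with its number beside the point. Controls 1, 2 and 4 lie apart at the upper right, and controls 3 and 5 lie beside the knockouts.

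Of the genes left out by name, 4 besides Tcf7l2 passed the count filter. Gpam, the first acyltransferase of glycerolipid synthesis, lies 0.67 Mb before Tcf7l2, nearer than any called member. It rose from 151 ± 13.0 to 182 ± 13.7 CPM (log2 fold change 0.27, adjusted p = 0.034). The elongase gene Elovl3 rose by 2.25 (adjusted p = 0.0063), while Adrb1 (-0.45, adjusted p = 0.18) and Col17a1 (-0.21, adjusted p = 0.61) did not pass. The window also held 9 tested loci that are not protein-coding, and 0 of them passed, with adjusted p values from 0.11 to 0.80.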

How the data were processed

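The authors deposited 1 table of unnormalized counts, a whole number for each gene and library. The submitters' processing notes name GRCm38, featureCounts 1.5.1, STAR 2.5.2b and DESeq2 1.16.0, and libraries were ribosomal RNA depleted and strand-marking per the labels' protocols. For the annotation, strand setting and multiply matching reads, nothing is given in the sources used here, so overlapping genes may share counts.

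From these counts, genes were filtered with filterByExpr, scaled with TMM and tested by edgeR 4.0.16 (quasi-likelihood, two-sided) in R 4.3.3, with Benjamini-Hochberg adjustment over 15927 genes. Positive values mean higher in the knockout, SD and n refer to 5 libraries a group, and 95% intervals use the SE and moderated degrees of freedom of the fit. Positions came from GENCODE M21 for 52489 of 52636 identifiers. A floor of 3 counts was 0.172 to 0.205 CPM, for counting error only. The 20 same-group pairs of libraries differed beyond sampling noise (chi-square per degree of freedom 7.28 to 29.7), so each counted as 1 replicate. On simulated data of 200 changed genes, 56.5% of 1.5-fold and 80.0% of 2-fold changes were recovered.

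Alternatives were RLE size factors, DESeq2 1.42.0, limma 3.58.1 (voom with quality weights), other count filters, the intronic-type score (GENCODE types TEC and sense_intronic, prior count 2) as a covariate, and leaving out each library. The rule named all called members, the 4 nearest on each side, the 5 most abundant per kilobase and 2 of smallest p from each role list, 21 in all, of which 1 is not reported here. Other members named were chosen after their values were seen. Members, lists and tests were chosen with earlier results of these data known.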

Additional observations from a re-analysis of the deposited data

Results flagged for a closer look

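Among 44 groups of 5 libraries checked (21 members and Tcf7l2, each in 2 groups), 3 had a library far from the other 4, where chance flags about 1 in 20. Usmg5 stood at 192 CPM in knockout 5, Sfr1, a DNA repair gene, at 149 CPM in control 5, and Acsl5 at 101 CPM in control 5. Without control 5, the adjusted p by edgeR was 0.036 for Sfr1 and 0.038 for Usmg5, against 0.35 and 0.15 with all libraries.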

How the results depend on the processing

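No paired analysis was possible because the labels give the groups no shared replicate numbers. RLE size factors and the member count filter for all genes gave the same 7 called members, and DESeq2 gave these and Gsto1 and Ina. Without a filter on low counts 11 members changed, 9 of them higher (background 5.82% of 40157 genes). That background also takes in genes too low for the members' count filter, so it is not a like comparison. By limma-voom with quality weights 17 members changed, 14 of them higher (background 22.6%), with 93 genes on the rest of chromosome 19 and 2831 elsewhere. In the fit with the intronic-type score, 0 members changed (0 higher, 0 lower), with 1 gene on the rest of the chromosome and 43 elsewhere, and the cause was not tested. Leaving out 1 library gave 2 to 12 changed members, 1 to 10 higher and 1 to 3 lower, with 7 to 72 genes on the rest of the chromosome and 449 to 2283 elsewhere, so the count of called neighbours rests on single libraries. Within 1, 2 and 5 Mb of Tcf7l2, 0 of 9, 2 of 16 and 3 of 38 members were called, beside 12.9% of all tested genes. Gpam, left out of these counts by name, lies 0.67 Mb before Tcf7l2 and was called. Tcf7l2 stayed between -0.92 and -0.84 in the leave-out fits, with a highest adjusted p of 0.0030. Over all alternatives of the 21 named members, 36 values lost and 13 gained a call, and no called value changed sign. Of the uncalled ones, Acsl5, Shoc2, Sfr1 and Usmg5 changed sign in the fit with the score, and Nhlrc2 with no filter and without knockout 1. Members with few counts, such as Sorcs1, Neurl1a and Gsto2, could show only large differences.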
